A study of Mus musculus with 6 samples.

Results

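A set of 10 genes of the p53 pathway and of growth arrest was followed in AML12 cells, an established hepatocyte line from the liver of mice carrying a human TGF-alpha transgene, with and without a static magnetic field (SMF), a field that does not change with time. The genes were Trp53, Mdm2, Cdkn1a, Ccng1, Zmat3, Phlda3, Sesn1, Trp53inp1, Gadd45a and Perp, taken by symbol from the 23886 Ensembl genes listed. All 10 of 10 were found, and all 10 passed the filter on low values, as did 11114 genes in all. Of the 6 libraries, 3 came from wild type AML12 cells labelled as having no treatment (Control 2, 3 and 4) and 3 from AML12 cells labelled SMF (SMF 1, 2 and 3). How strong the field was and how long it lasted is not stated in the labels, and nothing says that the libraries of a group came from separate cultures, so p-values measure only the spread between these samples, which may be technical. By its title the study is about liver injury, calcium influx and respiration; the question here was whether the transcripts of p53, of its regulators and of its target genes differed between exposed and unexposed hepatocytes.

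The p53 protein, encoded by Trp53 in the mouse, is a transcription factor that is kept scarce by the ubiquitin ligase Mdm2 and accumulates after DNA damage and other stresses. It then switches on genes that stop the cell cycle, repair DNA, lower growth signals or kill the cell, and among them Mdm2 itself, which closes a negative feedback loop. Much of this control acts on the protein, which was not measured here. In hepatocytes the pathway is best known for holding back division of damaged cells, with the CDK inhibitor p21, the product of Cdkn1a, as its main arm.

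The response element of p53 is built from half-sites of 10 bases. RefSeq windows that run from 250 bases before to 50 bases after a gene start (build GRCm38.p6) were at hand for 7 of the 10 genes, with 9 windows since Cdkn1a and Sesn1 have 2 starts each; Zmat3, Trp53inp1 and Perp had none. The p53 half-site consensus, which reads the same on both strands, was matched in 6 of the 9 windows and in 6 of the 7 genes. Over all 32851 windows 8.36% held a match, and of all 27025 genes 9.55% had one. The stretches are shown because these genes are known p53 targets or p53 itself; each is printed 5′ to 3′ on the strand of its gene, with the matched half-site in capitals and 15 bases on either side. Only exact matches of single half-sites were searched, so a neighbouring half-site with a mismatch stays in lower case. A match of letters is a description and no binding was measured.
Cdkn1a: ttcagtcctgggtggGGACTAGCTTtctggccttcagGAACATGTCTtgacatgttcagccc
Gadd45a: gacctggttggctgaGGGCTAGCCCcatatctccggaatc
Ccng1: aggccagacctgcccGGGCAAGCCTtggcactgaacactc
Mdm2: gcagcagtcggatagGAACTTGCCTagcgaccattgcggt
Trp53: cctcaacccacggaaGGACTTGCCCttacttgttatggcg
Sesn1: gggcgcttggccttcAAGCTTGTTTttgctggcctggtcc
The Cdkn1a stretch lay at chr17:29090891-29090952 on the plus strand, before the upstream one of its 2 starts, and held 2 matches; the window of the other start held none. The Gadd45a stretch lay at chr6:67037423-67037462 on the minus strand, with the match beginning 40 bases before the start. Ccng1 (chr11:40755447-40755486, minus strand) and Mdm2 (chr10:117710920-117710959, minus strand) had their matches 185 and 186 bases before the start. Those of Trp53 (chr11:69580269-69580308, plus strand) and Sesn1 (chr10:41887251-41887290, plus strand) began 75 and 173 bases before it. The match of Sesn1 lay before the downstream one of its 2 starts, and the window of the other start held none. The window of Phlda3 held no match.

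Levels are given as FPKM, that is, fragment counts divided by the length of the gene and by the size of the library, as the authors calculated them. Whole reads could be recovered from these values, and the library totals ran from 15514530 reads (SMF 1) to 18200516 reads (Control 3), with overlap between the groups. On the log2(FPKM + 1) scale, Pearson's r over the tested genes lay between 0.9911 and 0.9927 within groups and between 0.9865 and 0.9915 across them; genes are not independent replicates. The hepatocyte markers Alb, Hnf4a, Krt8 and Krt18 were present, with Alb at 26.3 to 34.1 FPKM and Hnf4a at 87.0 to 95.5 FPKM in controls, while Apoa1 and Serpina1a stayed under 1 FPKM. Krt19, a keratin of bile duct cells, was also high (1056 to 1075 FPKM in controls and 1024 to 1163 in SMF libraries). Of the other bile duct markers, Krt7 was at 58.8 to 63.8 FPKM in controls and 59.97 to 65.15 in SMF libraries. Sox9 was at 8.85 to 9.09 and 9.06 to 10.4 FPKM, and Epcam was at or near 0. Summed endothelial markers, of which only 2 of 4 were found, reached at most 0.169 FPKM in any library. The summed stellate cell or fibroblast markers reached 1.94 FPKM. The summed macrophage markers (3 of 4 found) were at 2.99 to 4.33 FPKM in controls and 3.40 to 3.73 with SMF. Most of this was Cd68 (up to 3.08) and Csf1r (up to 1.43), while Ptprc, which marks blood cells, reached at most 0.016 FPKM.

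All 10 genes were expressed in unexposed cells. From highest to lowest mean level in controls the order was Ccng1, Phlda3, Perp, Trp53, Cdkn1a, Gadd45a, Mdm2, Trp53inp1, Zmat3 and Sesn1, from 96.5 ± 4.28 FPKM for Ccng1 to 4.17 ± 0.0813 FPKM for Sesn1 (SD, n = 3). Only Ccng1 and Phlda3 overlapped among neighbours in that order, the lowest control value of Ccng1 being 91.9 FPKM and the highest of Phlda3 92.8 FPKM. By control level, Ccng1 stood at percentile 96.1 of the tested genes, Trp53 at 93.4, Cdkn1a at 90.5 and Sesn1 at 27.7. The reads behind a value ran from 203 to 298 per library for Sesn1 and from 4591 to 6001 for Ccng1. For Sesn1 this gives a counting error of 5.79% to 7.02% of the value, and for the other 9 genes of 1.29% to 3.05%; these figures cover counting error only.

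**Figure D1:**
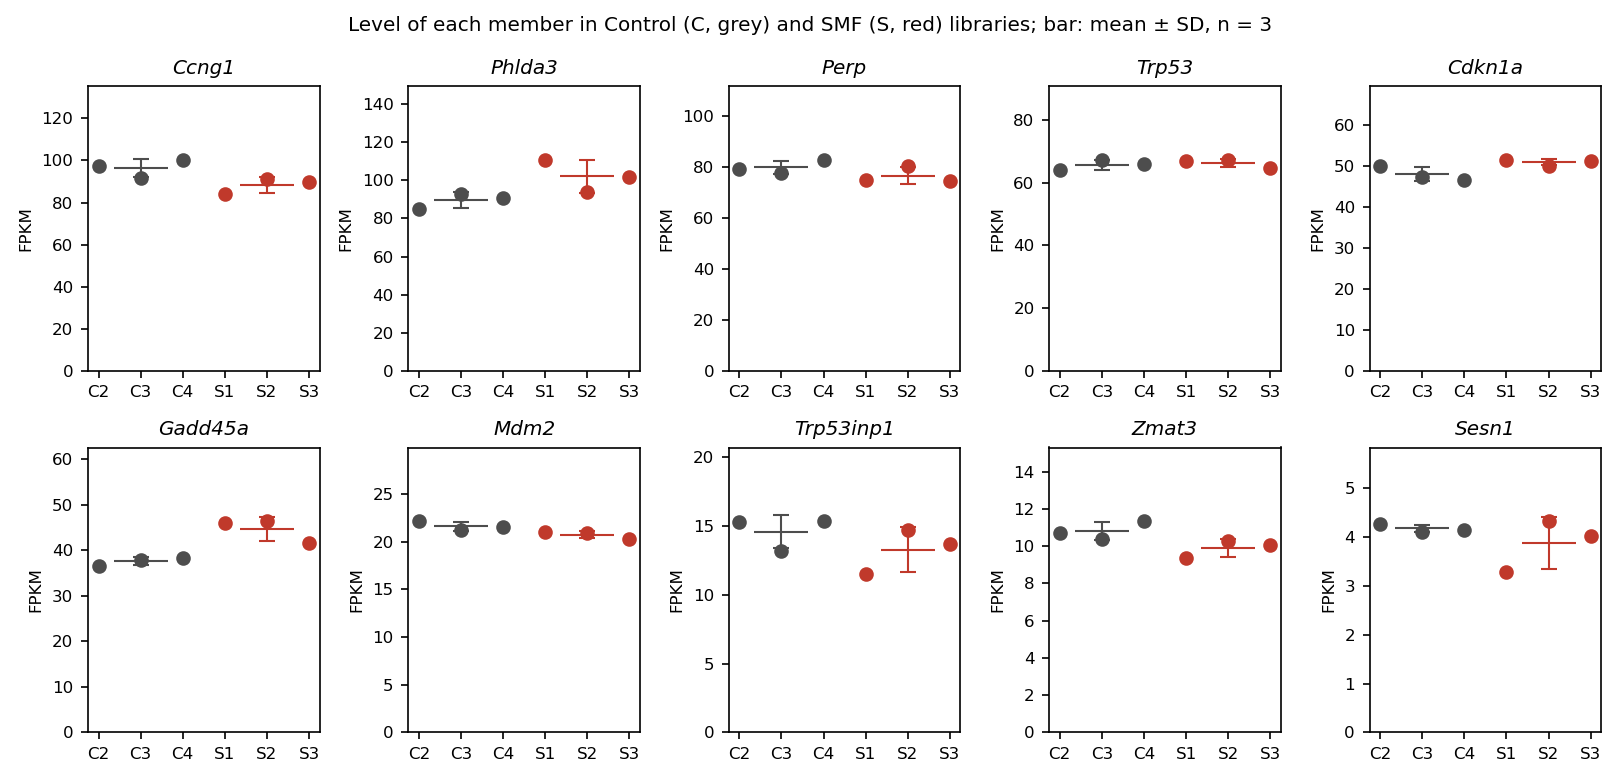
FPKM (vertical axes, from 0) of each of the 10 genes in the 6 libraries, C2 to C4 being controls in grey and S1 to S3 SMF libraries in red; the bar and whiskers give the mean ± SD of 3 libraries. Gadd45a sits at 36.6 to 38.3 FPKM in controls and 41.6 to 46.4 in SMF libraries, and Sesn1 and Trp53inp1 have their lowest value in SMF 1.

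The transcripts of all 10 genes kept within a narrow range, with ratios of the SMF mean to the control mean from 0.91 (Trp53inp1) to 1.19 (Gadd45a), and none of the 10 passed limma on log2(FPKM + 1) with Benjamini-Hochberg adjustment over all 11114 genes at a threshold of 0.05. None of the 11114 genes passed either, so the background of calls is 0%; limma-voom on the recovered reads called 481 genes. An unadjusted p under 0.05 was found for 3 of the 10 (Gadd45a and Phlda3 higher, Ccng1 lower) and for 1998 of all tested genes, or 18.0%. In bulk RNA, fewer cells with a transcript and less of it per cell cannot be told apart. The highest adjusted p was that of Trp53 and the lowest that of Gadd45a. The log2 folds of SMF over control ran from -0.13 to 0.24, with a median of -0.058, beside a median of -0.0096 over all tested genes. Of the 10 genes 4 were above 0 and 6 below, and of all tested genes 5189 were above and 5925 below. The SMF values all lay above the controls for Gadd45a, Phlda3 and Cdkn1a and all below for Mdm2, Ccng1 and Zmat3. Over all tested genes such separation was seen in 11.0% for higher and 12.7% for lower SMF values, 23.7% together, and the 6 of 10 are given as a description.

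Trp53 itself (ENSMUSG00000059552, chromosome 11) was measured at 64.1, 67.3 and 65.9 FPKM in Control 2, 3 and 4 and at 67.0, 67.2 and 64.8 FPKM in SMF 1, 2 and 3. The groups overlapped throughout. Its log2 fold was 0.012 with a 95% confidence interval of -0.07 to 0.09 (limma adjusted p = 0.879), so the interval covered ratios of SMF to control from 0.952 to 1.07. With 4207 to 4955 reads per library, Trp53 was among the most precisely measured of the 10.

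Mdm2 (ENSMUSG00000020184, chromosome 10), the ligase that marks p53 for degradation and is itself a p53 target, stood at 22.1, 21.2 and 21.5 FPKM in controls and at 21.04, 20.9 and 20.3 FPKM in SMF libraries. Every SMF value lay below every control, by a small margin. This gave a log2 fold of -0.057 (interval -0.15 to 0.03, limma adjusted p = 0.469). When a trend in GC content and gene length was taken out of each library (called the GC and length correction from here on), it was -0.0052, and the groups overlapped.

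Ccng1 (ENSMUSG00000020326, chromosome 11) encodes cyclin G1, a p53 target that brings the phosphatase PP2A to Mdm2 and so takes part in the same feedback. It was measured at 97.3, 91.9 and 100.3 FPKM in controls and at 84.3, 91.0 and 89.96 FPKM in SMF libraries. SMF 1 was the lowest, and SMF 2 came close to Control 3. On the log2 scale the difference was -0.12 (SE 0.046, interval -0.23 to -0.02), with a limma adjusted p of 0.23. With GC and length corrected for, the log2 fold became -0.049 (interval -0.12 to 0.02), and the groups overlapped.

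Of the genes that act directly on the cell cycle, Gadd45a differed most. Gadd45a (ENSMUSG00000036390, chromosome 6) encodes a small stress sensor that binds the replication clamp PCNA, p21 and the mitotic kinase Cdk1, and that p53 and other stress factors, ATF4 among them, can induce. It was measured at 36.6, 37.9 and 38.3 FPKM in Control 2, 3 and 4 and at 46.1, 46.4 and 41.6 FPKM in SMF 1, 2 and 3. All 3 SMF libraries lay above all controls, with SMF 3 nearest to them. The means were 37.6 ± 0.878 and 44.7 ± 2.66 FPKM (SD, n = 3), giving a ratio of 1.19, and the log2 fold was 0.24 (SE 0.049, interval 0.13 to 0.35). The adjusted p of limma was 0.147, the lowest of the 10 genes. On the recovered reads (1073 to 1414 per library), limma-voom gave a log2 fold of 0.24 with an adjusted p of 0.0232, the one call among the 10 genes, where limma-voom called 4.45% of the 10816 genes it could test, and 2.13% as higher with SMF. With GC and length corrected for, the log2 fold became 0.20 (interval 0.08 to 0.32), and all 3 SMF libraries still lay above every control, at 0.235, 0.276 and 0.088 against -0.04 to 0.027 on the log2 scale relative to the control mean. Neither test then passed (limma adjusted p = 0.238, limma-voom adjusted p = 0.103, where limma-voom called 0.823% of genes). In the GENCODE M21 annotation 19.1% of the exon bases of Gadd45a are shared with E230016M11Rik, a noncoding gene on the opposite strand, at 0.824 FPKM on average. No strand marking is stated for these libraries, so the reads of such a pair cannot be told apart.

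Cdkn1a (ENSMUSG00000023067, chromosome 17), whose product p21 inhibits cyclin-dependent kinases and is the best known p53 target in growth arrest, stood at 49.9, 47.2 and 46.6 FPKM in controls and at 51.4, 49.96 and 51.2 FPKM in SMF libraries. The groups were separated only by the distance from 49.93 FPKM in Control 2 to 49.96 FPKM in SMF 2. The fitted log2 fold was 0.085 (interval -0.01 to 0.17, limma adjusted p = 0.299), so a ratio above 1.13 lay outside the unadjusted interval. With the GC and length correction the log2 fold was 0.045 and the groups overlapped. As with Gadd45a, some exon bases of Cdkn1a (7.68%) are shared with a gene on the opposite strand, AC167363.2, at 0.284 FPKM on average.

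**Figure D2:**
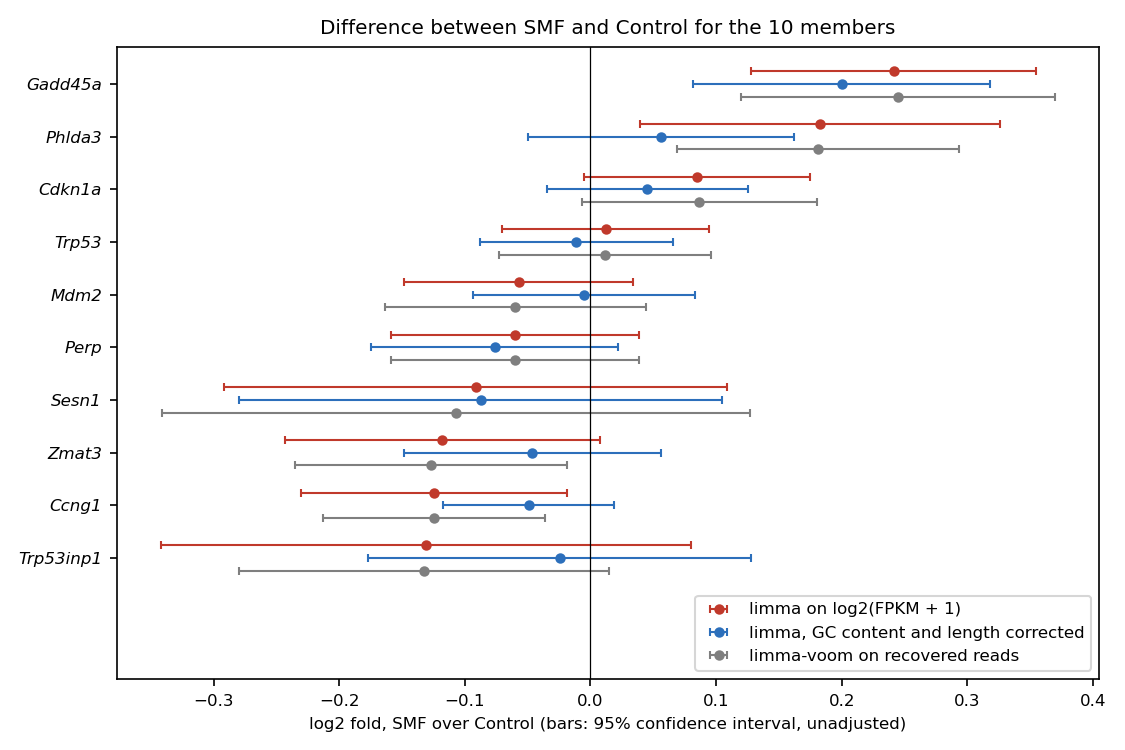
Log2 fold of SMF over control (horizontal axis) for the 10 genes, with unadjusted 95% confidence intervals as bars, from limma on log2(FPKM + 1) in red, from limma after the GC and length correction in blue, and from limma-voom on recovered reads in grey. The interval of Gadd45a lies above 0 in all 3 fits (0.13 to 0.35, 0.08 to 0.32 and 0.12 to 0.37), and that of Phlda3 reaches below 0 after the correction (-0.05 to 0.16).

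The genes tied to survival and cell death had log2 folds of both signs. Phlda3 (ENSMUSG00000041801, chromosome 1), whose product has a pleckstrin homology domain and competes with the kinase Akt for membrane lipids, was measured at 85.1, 92.8 and 90.9 FPKM in controls and at 110.7, 93.7 and 101.5 FPKM in SMF libraries. SMF 1 was far above the controls, whereas SMF 2 was just above the highest of them. Between the groups the log2 fold was 0.18 (SE 0.062, interval 0.04 to 0.33, limma adjusted p = 0.21), and limma-voom gave an adjusted p of 0.0533. With GC and length corrected for, the log2 fold became 0.056 (interval -0.05 to 0.16), and the groups overlapped. Phlda3 is the shortest of the 10 genes, at 1559 bases of exon, and its longest transcript has 62.6% GC.

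Perp (ENSMUSG00000019851, chromosome 10) encodes a membrane protein that acts in p53-dependent cell death and also belongs to desmosomes. It stood at 79.1, 77.8 and 82.9 FPKM in controls and at 75.1, 80.4 and 74.5 FPKM in SMF libraries. SMF 2 lay within the control range and the other SMF libraries below it. The log2 fold was -0.06 (interval -0.16 to 0.04, limma adjusted p = 0.483), and -0.076 with the GC and length correction.

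Zmat3 (ENSMUSG00000027663, chromosome 3) encodes a zinc finger protein that binds RNA and acts in splicing. Its values were 10.7, 10.4 and 11.3 FPKM in controls and 9.35, 10.3 and 10.1 FPKM in SMF libraries. The groups did not overlap, but SMF 2 came close to Control 3. Its log2 fold was -0.12 (interval -0.24 to 0.01, limma adjusted p = 0.3) and -0.046 after the GC and length correction, when the groups overlapped. Zmat3 is the longest of the 10 genes, at 11435 bases.

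For Trp53inp1 and Sesn1 the lowest value was that of SMF 1, and the log2 fold shrank without that library. Trp53inp1 (ENSMUSG00000028211, chromosome 4), whose product is a p53 cofactor in cell death and in autophagy, was at 15.3, 13.2 and 15.3 FPKM in controls and at 11.5, 14.7 and 13.7 FPKM in SMF libraries. SMF 2 and SMF 3 lay within the control range. This gave a log2 fold of -0.13 (interval -0.34 to 0.08, limma adjusted p = 0.472), and -0.037 without SMF 1. With all libraries kept and GC and length corrected for, the log2 fold of Trp53inp1 was -0.024. Sesn1 (ENSMUSG00000038332, chromosome 10) encodes a sestrin, one of the proteins that lower mTORC1 signalling under stress, and was the scarcest of the 10. It stood at 4.27, 4.11 and 4.14 FPKM in controls and at 3.29, 4.32 and 4.02 FPKM in SMF libraries. Again SMF 1 was the lowest, from 203 reads, and SMF 2 was the highest of the 6. On the log2 scale the difference was -0.091 (interval -0.29 to 0.11, limma adjusted p = 0.6), and -0.0013 without SMF 1. With all libraries and the correction it was -0.087.

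SMF 1 held the highest or the lowest value of the 6 libraries for 6 of the 10 genes, being highest for Cdkn1a and Phlda3 and lowest for Ccng1, Zmat3, Sesn1 and Trp53inp1. Control 4 did so for 5 genes, Control 2 for 4, SMF 2 and SMF 3 for 2 each and Control 3 for 1. The same count was not made over all tested genes, so it only describes these 10. SMF 1 also had the smallest read total. Without SMF 1 the median log2 fold of the 10 genes was -0.019 in place of -0.058, and without SMF 2 it was -0.078. These were the ends of the range over single libraries left out, and their cause was not tested.

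Over the tested genes in general the folds went with gene length. Among all tested genes with 1000 to 2000 bases of exon the median log2 fold was 0.067 (1228 genes), and among those above 10000 bases it was -0.086 (989 genes). The 3 shortest of the 10 genes (1559 to 1952 bases) had log2 folds of -0.06 to 0.24, and the other 7 (3512 to 11435 bases) of -0.13 to 0.085, so the ranges overlapped. Perp, one of the short genes, lay below the longer Cdkn1a and Trp53. Once GC and length were corrected for, the median over the 10 genes was -0.018, and all but Gadd45a had log2 folds between -0.087 and 0.056. Gadd45a was then the one gene of the 10 whose groups did not overlap, where 9.93% of the corrected genes had all SMF libraries higher and 8.82% had all lower.

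**Figure D3:**
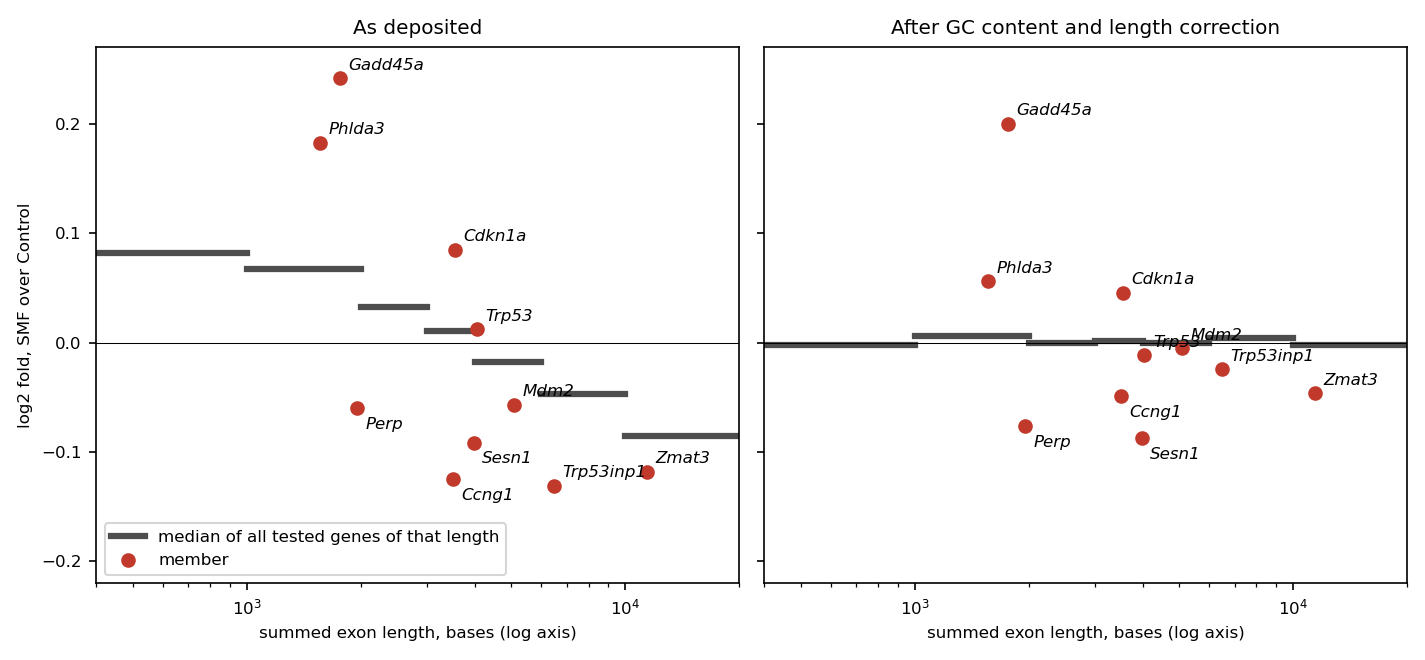
Log2 fold of SMF over control (vertical axis) against summed exon length in bases (horizontal log axis), as deposited on the left and after correction for GC content and length on the right; red points are the 10 genes and grey bars the median of all tested genes in each length class. The grey bars go from 0.082 for genes up to 1000 bases to -0.086 above 10000 bases on the left and lie near 0 on the right, where Gadd45a remains at 0.20.

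Around the 10 genes, 124 further genes of the pathway and of growth arrest were taken in 10 lists, of which 118 were found and 109 passed the filter; the rest were not analysed here. None passed limma over all genes. At an unadjusted p under 0.05, 10 were higher and 19 lower in SMF libraries, against 9.41% and 8.57% of all tested genes, and the median log2 fold was -0.057 (-0.037 after the GC and length correction). On recovered reads limma-voom called 10 of 108 of them, against 4.45% of all genes it tested. After the correction it called 1 of them, Rrm2, against 0.823% of all genes, a share near that background.

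Of 19 p53 regulators, none passed, 5 had a log2 fold above 0 and 14 below (median -0.076, and 0.0013 after the correction). After the correction 10 of the 19 lay above 0. Mdm4, the relative of Mdm2 that binds p53 and blocks its activity, was at 42.3 ± 1.45 FPKM in controls and 36.7 ± 2.92 FPKM with SMF (SD, n = 3; log2 fold -0.20, limma adjusted p = 0.176). Its limma-voom adjusted p of 0.0134 became 0.412 with the correction, and the log2 fold by limma-voom went from -0.21 to -0.065. Ep300, a histone acetyltransferase that also acetylates p53, was the other regulator that limma-voom called, and is named after its values were seen (12.8 ± 0.371 and 11.4 ± 0.659 FPKM, adjusted p = 0.0429, and 0.254 with the correction). Usp7, which removes ubiquitin from p53 and Mdm2, stood at 16.2 ± 0.558 and 14.4 ± 0.57 FPKM (log2 fold -0.16, limma adjusted p = 0.18; -0.083 after the correction). The ribosomal proteins Rpl5 and Rpl11, which can bind Mdm2 and hold it off p53, were at 238.4 ± 2.64 and 145.2 ± 4.39 FPKM in controls, and with SMF at 246.2 ± 5.05 and 157.2 ± 5.08. Ribosomal protein genes have near-identical processed copies, so these values are uncertain. The regulators had a median length of 7766 bases, beside 4209 bases over all tested genes. Whether length bears on their folds was not tested.

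Of 11 tested p53 targets in arrest and DNA repair, none passed and 2 had a log2 fold above 0, namely Sesn2 and Plk3. Sesn2, a sestrin that ATF4 also induces, was at 21.3 ± 1.03 FPKM without the field and 24.5 ± 0.536 under SMF, with all SMF values above the controls (log2 fold 0.19, limma adjusted p = 0.161). Limma-voom called Sesn2 before the GC and length correction (adjusted p = 0.0423) and not after it (0.304). Plk3, a stress-responsive kinase, was at 3.68 ± 0.611 and 4.51 ± 0.191 FPKM, and the groups overlapped. Pcna, the replication clamp, and Gtse1, a G2 and S phase protein that restrains p53, were at 88.6 ± 3.52 and 40.4 ± 1.6 FPKM in controls, and with SMF at 87.2 ± 5.08 and 38.9 ± 1.17.

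Among 13 p53 targets in cell death none passed, 6 lay above 0 and 7 below, with a median of -0.025. Bax, which permeabilises the outer mitochondrial membrane, stood at 37.0 ± 2.43 FPKM in control libraries and 41.6 ± 3.25 with SMF (log2 fold 0.16, and 0.038 after the GC and length correction). The groups overlapped for Bax, as they did for Pidd1, a death domain protein, at 7.57 ± 0.324 and 8.37 ± 0.53 FPKM, and for Ei24, an endoplasmic reticulum protein, at 25.5 ± 0.942 and 24.6 ± 0.697 FPKM.

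The 8 tested targets in metabolism and other functions had 5 genes above 0 and 3 below (median 0.035, and 0.008 after the correction), and none passed limma. Gdf15, a secreted stress cytokine that ATF4 induces as well, was at 6.999 ± 0.942 FPKM in controls and 9.56 ± 0.265 FPKM with SMF (log2 fold 0.41, limma adjusted p = 0.147). Limma-voom gave Gdf15 an adjusted p of 0.0258, and 0.144 with the correction, with log2 folds of 0.46 and 0.35. Gls2, a glutaminase, stood at 6.57 ± 0.112 and 7.69 ± 0.235 FPKM (log2 fold 0.20, limma adjusted p = 0.164), Ephx1, an epoxide hydrolase, at 90.5 ± 1.59 and 95.8 ± 1.4 FPKM, and Prkab1, a subunit of AMP-activated kinase, at 45.1 ± 0.657 and 46.6 ± 1.32 FPKM. All SMF values lay above all controls for these 4 of the 8 genes, as they did for 11.0% of all tested genes, though the log2 fold of Prkab1 went from 0.047 to -0.0032 under the correction.

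The relatives of the 10 genes, of which 8 were tested and none passed, had 2 above 0 and 6 below. Besides Mdm4 and Sesn2, the rule named Phlda1, a relative of Phlda3, at 59.5 ± 1.32 FPKM without the field and 64.0 ± 2.21 under SMF (log2 fold 0.10, and 0.010 after the correction). Of 5 tested CDK inhibitors beside Cdkn1a none passed. Cdkn2a, which encodes both p16 and the Mdm2 inhibitor p19ARF, was at 76.7 ± 7.85 and 89.0 ± 2.93 FPKM (log2 fold 0.22, limma adjusted p = 0.202), and its limma-voom adjusted p of 0.0436 became 0.639 with the correction. Cdkn1b, which encodes p27, stood at 19.9 ± 0.384 and 17.8 ± 0.764 FPKM, with all SMF values lower (log2 fold -0.16, limma adjusted p = 0.172), and Cdkn2b, which encodes p15, at 47.9 ± 2.74 and 47.6 ± 2.09 FPKM with overlap.

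**Figure D4:**
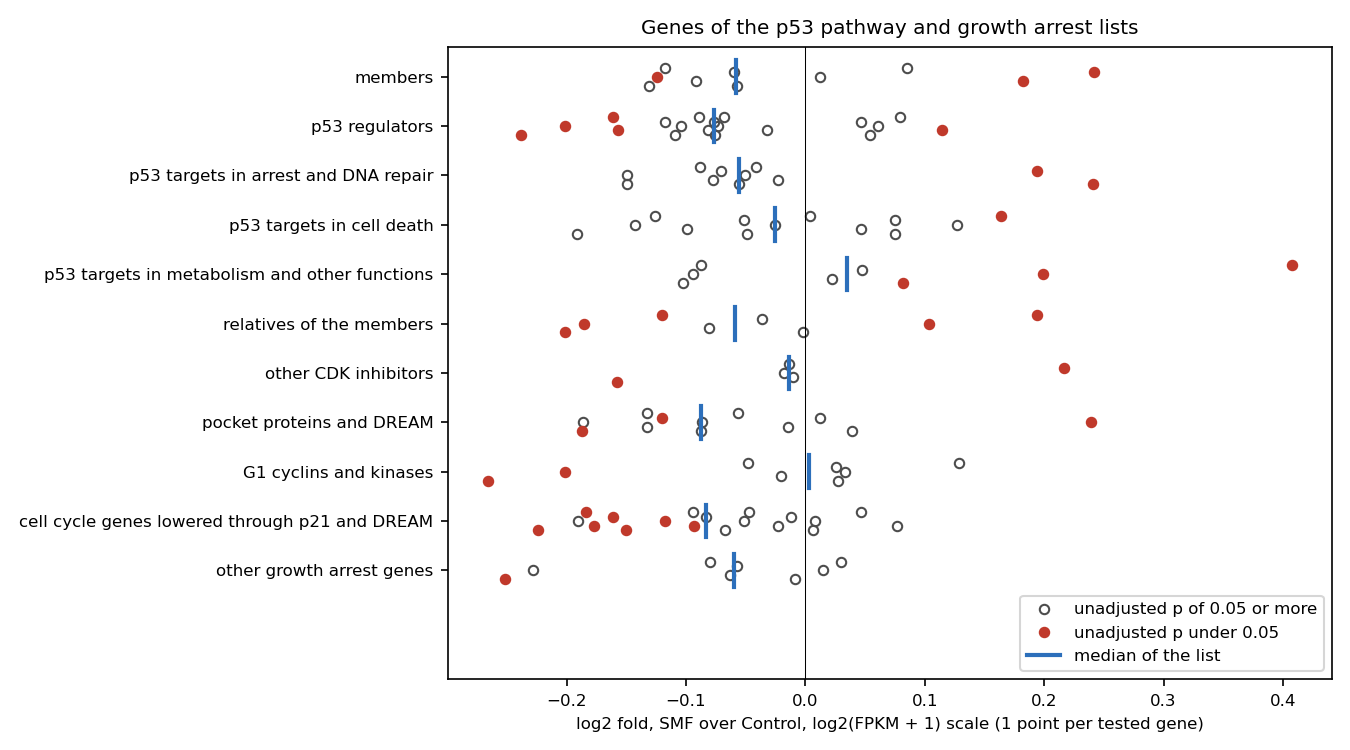
Log2 fold of SMF over control on the log2(FPKM + 1) scale (horizontal axis) for each tested gene of the 10 genes and of 10 further lists (rows); filled red points have an unadjusted p under 0.05, open points do not, and the blue bar is the median of the list. No point passed after adjustment over all genes; the medians run from -0.087 for pocket proteins and DREAM to 0.035 for targets in metabolism and other functions.

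Downstream of p21, the pocket proteins and the DREAM complex hold cell cycle genes silent. Of their 12 tested genes none passed, 3 lay above 0 and 9 below (median -0.087, and -0.039 after the correction). Tfdp1 and E2f4, DNA-binding partners of these complexes, stood at 57.9 ± 2.43 and 35.8 ± 0.833 FPKM in controls, and with SMF at 54.5 ± 2.85 and 36.9 ± 2.76. Tfdp2, a relative of Tfdp1, was at 4.25 ± 0.111 and 3.61 ± 0.126 FPKM with all SMF values lower (log2 fold -0.19, limma adjusted p = 0.203); limma-voom gave it an adjusted p of 0.0369, and 0.392 with the correction. E2f5, a repressive E2F, was at 9.18 ± 0.889 and 11.0 ± 0.885 FPKM with all SMF values higher (log2 fold 0.24, and 0.23 after the correction; limma adjusted p = 0.203).

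Among cell cycle genes that p53 lowers through p21 and DREAM, 4 of 19 had a log2 fold above 0 and 15 below (median -0.083, and -0.079 after the correction), and none passed limma. At an unadjusted p under 0.05, 7 were lower and none higher, where 8.57% of all tested genes were lower and 9.41% higher. Rrm2, the small subunit of ribonucleotide reductase, was at 73.9 ± 2.25 FPKM in control libraries and 63.1 ± 2.48 with SMF, with all SMF values lower (log2 fold -0.22, and -0.20 after the correction). Its adjusted p was 0.147 by limma, 0.00792 by limma-voom and 0.0153 by limma-voom with the correction. Ccnb1, which encodes the mitotic cyclin B1, stood at 27.02 ± 1.02 and 24.04 ± 0.548 FPKM (log2 fold -0.16, limma adjusted p = 0.164), and Mcm5, of the replicative helicase, at 60.9 ± 2.86 and 62.9 ± 3.46 FPKM. Limma-voom without the correction also called Ccna2 (cyclin A2) and Top2a (topoisomerase II), named after their values were seen, with adjusted p of 0.0377 and 0.0208; with the correction these were 0.137 and 0.428.

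The 8 cyclins and kinases of G1 had 4 log2 folds above 0 and 4 below (median 0.0027), and none passed. Ccnd1 and Cdk4, the most abundant, stood at 235.0 ± 5.62 and 172.0 ± 4.88 FPKM in controls, and with SMF at 227.2 ± 4.15 and 175.3 ± 10.9, with overlap. Both E cyclins, the partners of Cdk2 at entry into S phase, had all SMF values below the controls, as had 12.7% of all tested genes. Ccne1 was at 3.11 ± 0.0914 and 2.58 ± 0.116 FPKM (log2 fold -0.20, limma adjusted p = 0.213). Ccne2 was at 2.91 ± 0.428 and 2.24 ± 0.153 FPKM (log2 fold -0.27, limma adjusted p = 0.233). Its groups were barely separated, as Control 3 and SMF 2 both rounded to 2.42 FPKM. Of 8 other growth arrest genes none passed, with 2 above 0 and 6 below. Klf6, a zinc finger factor, was at 21.4 ± 1.62 and 17.9 ± 2.49 FPKM with overlap (log2 fold -0.25; limma-voom adjusted p = 0.041, and 0.177 with the correction). Ndrg1 varied widely within groups, at 71.2 ± 18.4 and 60.0 ± 9.67 FPKM, and Tob1 stood at 44.9 ± 0.324 and 42.5 ± 3.35 FPKM.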

How the data were processed

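Poly(A) RNA of AML12 cells was sequenced in 3 control and 3 SMF libraries. The deposited FPKM values were calculated by the authors; the submitters' processing notes list GRCm39, HISAT2 2.1.0 and Bowtie2 2.2.3 without roles. How reads were counted, and what was done with multi-mapped ones, is not stated there. Symbols, exon lengths and GC content (longest transcript) came from GENCODE M21 (GRCm38), which named 23529 of 23886 genes. Gene coordinates are therefore not given, and those of the promoter stretches are on GRCm38.p6. Reads were recovered as FPKM times length times library total, and came out whole within 0.02 reads for 98.08% of 21748 genes.

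SMF and control libraries were compared by limma (version 3.58.1, R 4.3.3), two-sided, with an intensity-dependent variance prior, on log2(FPKM + 1) without other scaling, for genes with at least 1 FPKM in at least 3 libraries, adjusted over all of them (threshold 0.05). Fold changes of low genes are understated on this scale. The correction removed a smooth trend (loess, span 0.3) in GC content and length from each library, for 99.47% of tested genes. Limma-voom ran on the recovered reads, also with that correction, an alternative chosen after seeing the data. Other settings were pseudocounts of 0.1 and 5, filters, scalings, a threshold of 0.01, a replicate block and each library left out. Limma and limma-voom without the correction were tested on simulated reads with no trend in GC content or length between libraries. The corrected fits were not tested in this way. From each further list the genes past the threshold were named, or else the 2 most abundant and the 2 with the smallest p. The 10 genes and all lists were chosen with earlier results of these data known.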

Additional observations from a re-analysis of the deposited data

How the results depend on the processing

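In 189 refits of the 10 genes, 180 kept the direction and the side of the threshold. Gadd45a passed in 1, limma-voom without the GC content and length correction (log2 fold 0.24, adjusted p = 0.0232); over its alternatives the adjusted p ran from 0.0232 to 0.601 and the log2 fold from 0.19 to 0.29, or from 0.21 to 0.29 with 1 library left out. The direction of Trp53 turned, always near 0, to -0.022 under TPM, -0.028 under quantile normalization, -0.011 with the correction, -0.0050 with correction and replicate block and -0.013 with limma-voom and correction, and ran from -0.0062 to 0.029 with 1 library left out. Mdm2 turned to 0.00061 with limma-voom and correction, and Trp53inp1 to 0.054 with correction and block. The count over all genes went from 0 to 8 with a filter at 5 FPKM, 481 by limma-voom, 89 by limma-voom with correction and 0 to 3 with 1 library left out. By limma-voom 1 of the 10 genes and 10 further genes were called, and 1 further gene with correction. The median log2 fold of the 10 genes, -0.058, ran from -0.078 to -0.019 with 1 library left out and was -0.018 with correction and -0.0075 by limma-voom with correction. The causes were not tested.

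The groups share the replicate numbers 2 and 3. Deviations of same-numbered libraries from their group means correlated at 0.058 and 0.046, and those of differently numbered ones at -0.148 to 0.107. No label ties a number to a day or culture. Number 4 occurs only among the controls and number 1 only among the SMF libraries. A fit with the replicate block therefore takes the fold from Control 2 and 3 against SMF 2 and 3 alone. A shift under the block thus cannot be told apart from the loss of Control 4 and SMF 1. With the replicate block 19 genes were called, or 21 with the correction, none of them among the 10. The median of the 10 genes was -0.0037 with the block and -0.0025 with block and correction.

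Of the further named genes 8 changed direction in 26 of 623 refits. With the replicate block, the log2 fold was 0.0084 for Pcna, -0.016 for E2f4, -0.021 for Cdk4 and -0.025 for Mcm5. With correction and block it was 0.014 for Pcna, -0.0029 for Bax, 0.0081 for Ei24, -0.017 for Prkab1, -0.059 for E2f4, -0.043 for Cdk4 and -0.031 for Mcm5. With correction alone it was -0.0032 for Prkab1, -0.030 for E2f4 and -0.011 for Cdk4, and by limma-voom with correction -0.0095, -0.038 and -0.016. Cdk4 was at -0.0084 under TPM and -0.037 under quantile normalization. With 1 library left out Pcna ran from -0.066 to 0.017, Cdkn2b from -0.045 to 0.036 and Cdk4 from -0.0017 to 0.078. Intervals here are unadjusted and rest on 3 libraries a group.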
